A study of Mus musculus with 8 samples.

Results

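The genes that encode proteins which bind or remove N6-methyladenosine (m6A) were examined for m6A peaks of their own in mouse liver. The 10 genes were chosen by name: Ythdf1, Ythdf2, Ythdf3, Ythdc1, Ythdc2, Igf2bp2, Hnrnpa2b1 and Hnrnpc for the readers, and Alkbh5 and Fto for the demethylases. The rule used no measured value, though earlier results of these data were known when it was made. Of the 10 genes, 9 carried at least 1 peak, while 11558 genes had a peak in at least 1 genotype. They held 32 of 34820 listed peaks, which fell into 18 of 21738 sites. A site is a group of peaks of the same gene and strand joined by at least 1 exonic base shared between the genotypes, or a single peak without such a partner. Peaks of the same genotype were joined only through a peak of the other genotype.

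The peaks come from m6ARIP-seq, in which fragments of poly(A)+ RNA are pulled down with an antibody to m6A and sequenced beside the input. Livers that lack WTAP in hepatocytes (Wtap-HKO) were set against Wtap flox/flox livers. Both genotypes carry Wtap alleles with an exon flanked by loxP sites on a C57BL/6 background, and both were kept on normal chow until 8 weeks of age. Wtap-HKO mice carry Alb-Cre in addition, which deletes Wtap in hepatocytes. The paper describes the knockout as hepatocyte-specific, and the state of the gene in each other liver cell type is not given. The 8 libraries formed 4 groups of 2, an immunoprecipitate (IP) and an input for each genotype, and each sample was pooled from several mice. The deposited lists combine the 2 replicates of a genotype, so each value below has no replicate spread, no SD and no test, and the depth of the libraries is unknown.

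Fold enrichment, the unit of every value below, is the ratio of IP to input over a peak. It is a ratio within a genotype and not a transcript level. In whole liver, a change in a peak can also come with a change in the cells that hold the transcript, and fewer cells of a type and less RNA per cell cannot be told apart. Of 6 hepatocyte markers, Alb, Apoa1 and Apob had a peak in both genotypes, Cyp2e1 in Wtap flox/flox only and Ttr in Wtap-HKO only, and of 12 markers of other liver cells, 6 had a peak in Wtap flox/flox livers and 8 in Wtap-HKO livers. The part of cell composition in the results was not tested. Wtap itself kept 3 sites with peaks in both genotypes, and its highest fold enrichment was 20.7 in Wtap flox/flox livers and 20.6 in Wtap-HKO livers. The log2 ratios of its 3 sites ran from -0.85 to 1.23, and 1 region of the gene was in the deposited list of regions that differ between the genotypes. Alb-Cre removes an exon, the knockout is described as hepatocyte-specific and peaks are not levels, so these values are no check of the deletion.

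m6A is written on messenger RNA by a complex in which METTL3 and METTL14 form the catalytic core and WTAP is a regulatory subunit. Reader proteins bind the mark and pass it on to the splicing, export, translation or decay machinery, and the demethylases FTO and ALKBH5 can take it off again. In most tissues m6A is concentrated around stop codons and in long internal exons, where the sequence GGAC is a common core. A second modification, m6Am, sits on the first transcribed base next to the cap. Antibodies to m6A also bind m6Am, so that near a transcription start both marks cannot be told apart by this assay.

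Some of these genes had peaks that reached an annotated transcript start, and the bases covered there are shown first. RefSeq promoter entries (GRCm38.p6) were given for 8 of the 10 genes, with 9 start sites in all, and peaks covered some of the first 50 transcribed bases at 5 of these. At 4 starts peaks covered at least 20 of these bases, and the first covered stretch is given 5′ to 3′ on the transcript strand in DNA letters, up to 30 bases long. The stretches are chr5:86804266-86804295 (+) for Ythdc1 from its start, chr6:51469865-51469894 (-) and chr6:51469816-51469845 (-) for the outer and inner start of Hnrnpa2b1, and chr8:91313555-91313574 (+) for Fto, which begins inside the window and not at the start itself. The labels describe the printed stretch only. At the outer start of Hnrnpa2b1 the Wtap flox/flox peak covered 20 of the 50 bases, downstream of that stretch.
Ythdc1, covered in both genotypes: gcgccgcccggcgtcgccatctgtgtctct
Hnrnpa2b1 outer start, covered in Wtap-HKO only: gttagtggggggaaggttctagaaaagcgg
Hnrnpa2b1 inner start, covered in both genotypes: agtagcagcggcgccggtcccgtgtgcagg
Fto, covered in Wtap-HKO only: gaaggcggctttagtagcag

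No letters are set in capitals, because on the transcript strand none of the 4 core sequences searched occurs in these stretches, neither GGAC nor its variants with GAAC or with AGAC or with AAAC. The search covered the first 50 transcribed bases of each start on both strands. On the transcript strand, Ythdf1, Ythdf2, Ythdc1, Alkbh5 and both starts of Hnrnpa2b1 held 0 matches, Fto and Igf2bp2 held 1 match each and Hnrnpc held 2. Over all 32851 promoter entries, 50.8% held at least 1 of the 4 cores in this window on the transcript strand and 51.0% on the other strand, and GGAC alone was found in 18.9% and 17.4%. Matches of the 4 cores cannot overlap each other. On the other strand Ythdf1, Ythdc1 and the outer start of Hnrnpa2b1 held 2 matches each, the inner start and Alkbh5 held 1 each, and the rest held 0. A missing match says only that the letters are not in this window.

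Peaks were listed in 6 of the 10 genes in Wtap flox/flox livers and in 9 in Wtap-HKO livers. Over all genes, 9020 had a peak in Wtap flox/flox livers and 10634 in Wtap-HKO livers. The whole Wtap-HKO list was also longer, with 19185 peaks beside 15635. Ythdc2, Hnrnpc and Fto had a peak in Wtap-HKO livers only, which makes 3 of 9 genes beside 22.0% of all genes with a peak. A peak in Wtap flox/flox livers only was found in 0 of 9, beside 924 of all 11558 genes with a peak. By site, 12 of 18 (66.7%) were found in both genotypes, beside 54.4% of all sites. Another 5 sites were listed in Wtap-HKO only, beside 31.2% of all sites, and 1 in Wtap flox/flox only, beside 14.4%. Most sites were thus found in both genotypes, for the reader and eraser genes as for all genes. The difference between these shares was not tested.

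**Figure D1:**
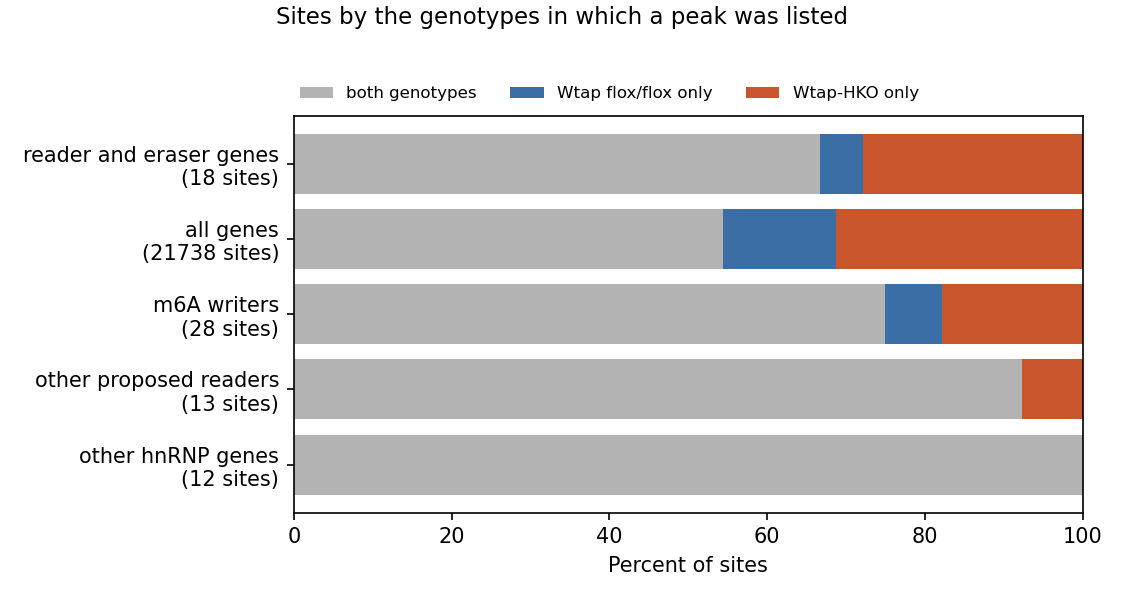
Share of sites (percent, horizontal axis) with a peak in both genotypes, in Wtap flox/flox only or in Wtap-HKO only, for the reader and eraser genes, for all genes and for 3 comparison lists, with the number of sites in brackets. Of the 18 sites of reader and eraser genes 66.7% were found in both genotypes, against 54.4% of all 21738 sites.

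Among the 12 shared sites, 10 had a single peak in each genotype, so that fold enrichments could be set against each other (1-to-1 sites). Over all genes this held for 10805 of 11822 shared sites. At these 10 the ratio of Wtap-HKO to Wtap flox/flox was above 1 at 6 and below 1 at 4. Its median was 0.22 on the log2 scale, with quartiles of -0.19 and 0.78, beside a median of 0.01 and quartiles of -0.59 and 0.66 over all 10805 such sites. A fold enrichment more than 2-fold higher in Wtap-HKO was seen at 1 of the 10 (Ythdf3, 5′ end), beside 14.8% of all 1-to-1 sites. More than 2-fold lower values were seen at 2 of the 10, both in Ythdf2, beside 12.4%.

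**Figure D2:**
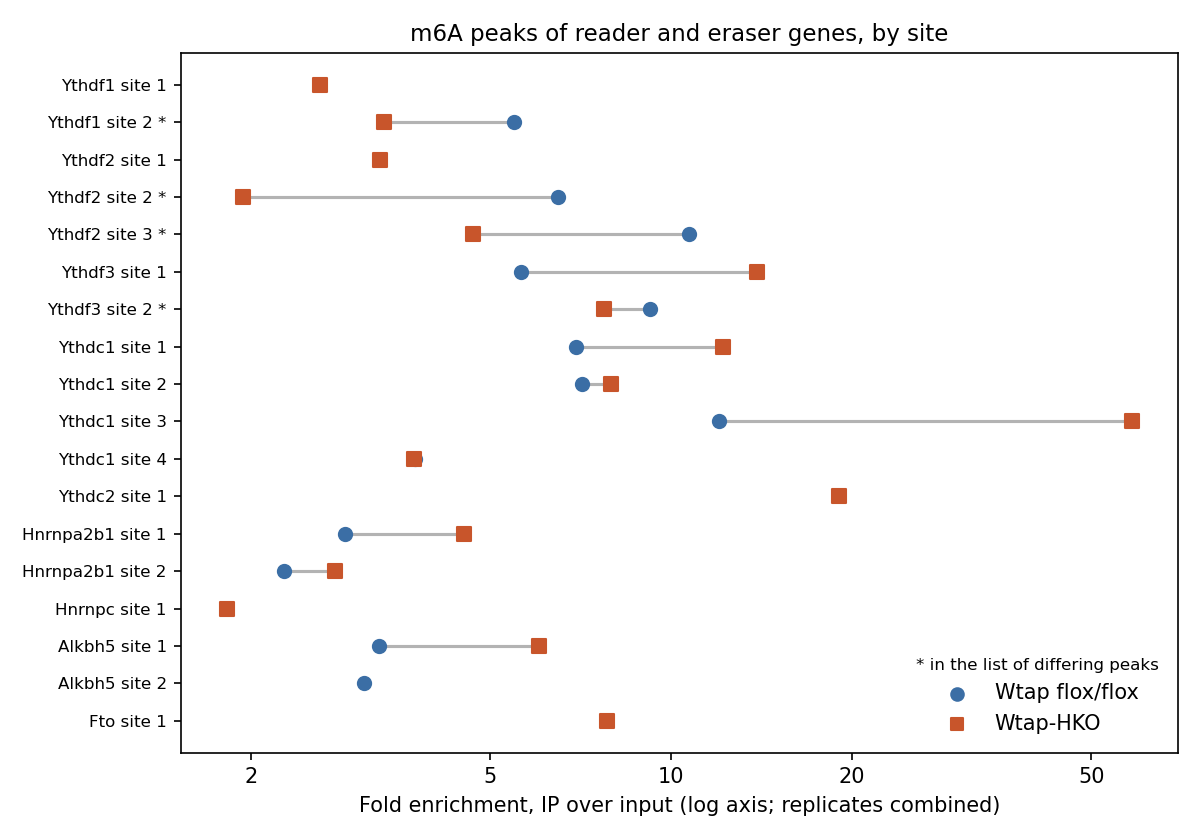
Fold enrichment of IP over input (log axis) at each of the 18 sites in Wtap flox/flox (circles) and Wtap-HKO livers (squares), replicates combined, with the highest peak drawn where a genotype had more than 1 and an asterisk at sites in the deposited list of differing peaks. The internal sites of Ythdf1 and Ythdf2 lie lower in Wtap-HKO, and the 5′ sites of Ythdf3, Ythdc1, Hnrnpa2b1 and Alkbh5 lie higher.

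YTHDF1, YTHDF2 and YTHDF3 are closely related cytoplasmic readers. YTHDF2 is best known for directing methylated transcripts to deadenylation and decay, and YTHDF1 has been linked to translation. Counted over both genotypes, all 3 genes had a site at the 5′ end and an internal site with a long peak. Ythdf2 had a shorter internal site in addition. The 5′ sites of Ythdf1 and Ythdf2 were listed in Wtap-HKO livers only. In those livers the internal site of Ythdf1 held shorter peaks in place of the long one. At the internal sites the fold enrichment was lower in Wtap-HKO livers in each of the 3 genes, by an amount that ranged from slight in Ythdf3 to more than 3-fold in Ythdf2.

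Ythdf2 (ENSMUSG00000040025, chr4:132184916-132212256, minus strand) had the largest falls among the 10 1-to-1 sites. Its internal site at chr4:132205203-132205591 had a fold enrichment of 6.48 over 389 nt in Wtap flox/flox livers and of 1.94 over 121 nt in Wtap-HKO livers. The log2 ratio was -1.74, which placed it at percentile 2.46 of all 1-to-1 sites. By rank within each list, the peak went from percentile 58.2 to percentile 3.47. The Wtap-HKO peak lay wholly inside the Wtap flox/flox peak and covered 31.1% of it.

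The next site of Ythdf2 was spliced, with 1 block of 923 nt and another of 243 nt between 132186705 and 132205054 in Wtap flox/flox livers. Its fold enrichment was 10.7 in Wtap flox/flox livers and 4.67 in Wtap-HKO livers, a log2 ratio of -1.20 at percentile 8.39 of all ratios. The blocks in Wtap-HKO were 803 and 214 nt long, so that 87.2% of the Wtap flox/flox peak was still covered. Extent was thus largely kept at this site, and enrichment was not. At the 5′ end of Ythdf2, 162 nt from the annotated start, a peak of 151 nt at chr4:132211944-132212094 was listed in Wtap-HKO livers only, with a fold enrichment of 3.28.

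Ythdf1 (ENSMUSG00000038848, chr2:180904377-180920936, minus strand) had 1 internal peak in Wtap flox/flox livers, an unbroken block of 1345 nt at chr2:180910739-180912083 with a fold enrichment of 5.48. In Wtap-HKO livers the same stretch held 2 peaks, of 329 nt with a fold enrichment of 3.17 and of 658 nt with 3.32. They covered 73.4% of the Wtap flox/flox peak, and both were lower than it. The stretch was thus listed as shorter and lower parts, and whether the gap between them reflects a change in the mark was not tested. A new peak of 150 nt at chr2:180920740-180920889, 47 nt from the 5′ end of the gene, had a fold enrichment of 2.60 in Wtap-HKO livers (percentile 10.7 of that list).

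Ythdf3 (ENSMUSG00000047213, chr3:16183148-16217037, plus strand) had both of its sites in both genotypes. At its 5′ end, 64 nt from the start of the gene, the fold enrichment was 5.62 in Wtap flox/flox livers and 13.9 in Wtap-HKO livers. This was the largest rise of the 10 1-to-1 sites, with a log2 ratio of 1.31 at percentile 91.5 of all ratios. The peak began at the same base, 16183212, in both genotypes and ran 1 exon further in Wtap-HKO, to 390 nt from 331 nt. The internal site of Ythdf3, of 1738 nt in 2 blocks, was enriched 9.22-fold in Wtap flox/flox livers and 7.73-fold in Wtap-HKO livers, a log2 ratio of -0.25. That lies well within the quartiles of all 1-to-1 sites. Of the 3 YTHDF genes, Ythdf3 thus had the smallest difference at its internal site and the highest value at the 5′ end.

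YTHDC1 is the nuclear YTH reader, known for roles in splicing and export of methylated transcripts. Ythdc1 (ENSMUSG00000035851, chr5:86803980-86836659, plus strand) carried the most sites, 4, and all of them had peaks in both genotypes. At the 5′ site, which includes the transcript start printed above, the fold enrichment was 6.93 in Wtap flox/flox livers and 12.2 in Wtap-HKO livers (log2 ratio 0.82, percentile 79.8). At the second site, in the middle of the gene, it was 7.10 and 7.95 (log2 ratio 0.16). Part of that site, 146 nt in Wtap flox/flox livers and 176 nt in Wtap-HKO livers, is also listed for the gene entry ENSMUSG00000105704 on the same strand, so the reads there cannot be assigned to Ythdc1 alone. At the site nearest the 3′ end, 569 nt from it, the fold enrichments were 3.75 and 3.73.

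The remaining site of Ythdc1 held the highest fold enrichment of all 32 peaks. In Wtap flox/flox livers it was 1 peak of 1467 nt at chr5:86828099-86829565 with a fold enrichment of 12. In Wtap-HKO livers it was divided into a peak of 450 nt with 9.45 and a peak of 689 nt at chr5:86828847-86829535 with 58.5, which stood at percentile 98.6 of its list. The false discovery rates were 6.3e-64 in Wtap flox/flox livers and 2e-23 and 3.2e-70 for the Wtap-HKO peaks. The stretch of the long internal peak was thus listed in parts, as in Ythdf1, with 1 part far above and 1 part below the value in Wtap flox/flox livers. Whether the gap between the parts reflects a change in the mark was not tested here either.

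**Figure D3:**
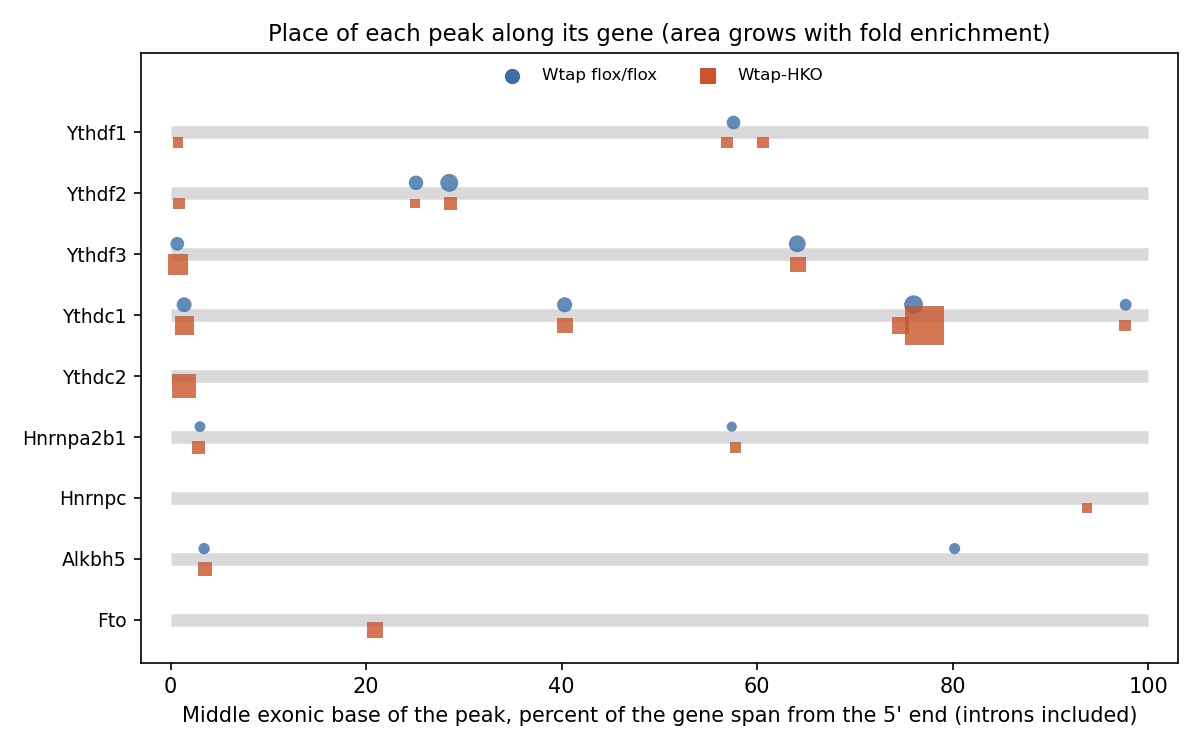
Place of each peak along its gene, as the middle exonic base in percent of the gene span from the 5′ end (introns included), for 9 genes, with circles for Wtap flox/flox and squares for Wtap-HKO and an area that grows with fold enrichment. In Wtap-HKO livers 7 of the 9 genes have a peak in the first 10% of the span, and 4 of them have one in Wtap flox/flox livers. Such counts are not given for all genes, so these are not shown to be particular to the 9. Over all genes, 83.1% of 1641 1-to-1 sites placed there have a higher fold enrichment in Wtap-HKO.

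YTHDC2 is an RNA helicase with a YTH domain, best known from germ cells. Ythdc2 (ENSMUSG00000034653, chr18:44827730-44889720, plus strand) had no peak in Wtap flox/flox livers. In Wtap-HKO livers it had 1 peak of 181 nt, 736 nt from the 5′ end, with a fold enrichment of 19.0 (percentile 86.1). Its false discovery rate of 9.5e-05 was among the weakest of the 32 peaks, and only 3.14% of the Wtap-HKO list had a weaker one. A high fold enrichment stood beside little statistical weight here.

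IGF2BP2 belongs to a family of RNA-binding proteins that stabilise methylated transcripts. Igf2bp2 (chr16:22059009-22163299, minus strand) had 0 peaks in either genotype, by name and by position. This does not show that its transcript lacked m6A, since a peak requires enough reads and the depth is unknown. Igf2bp1 and Igf2bp3 also had 0 peaks.

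HNRNPA2B1 and HNRNPC are abundant nuclear proteins with roles in RNA processing, whose binding depends in part on m6A in the RNA. Hnrnpa2b1 (ENSMUSG00000004980, chr6:51460434-51470048, minus strand) had 2 sites in both genotypes, both low and both higher in Wtap-HKO livers. At the 5′ site the fold enrichment was 2.86 in Wtap flox/flox livers and 4.51 in Wtap-HKO livers (log2 ratio 0.66). The Wtap flox/flox peak ended at base 51469864, and the Wtap-HKO peak ran to 51469894, the outer of the starts in the promoter entries, and so took in the 30 bases of the outer start shown with the sequences. At the internal site, spread over 3 exons, the fold enrichments were 2.27 and 2.76 (log2 ratio 0.28).

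Hnrnpc (ENSMUSG00000060373, chr14:52073377-52104039, minus strand) had 1 peak in Wtap-HKO livers only, of 120 nt at chr14:52075259-52075378, 1882 nt from the 3′ end. Its fold enrichment of 1.82 was the lowest of the 32 peaks, at percentile 2.50 of the Wtap-HKO list, with a false discovery rate of 6.3e-14. It was thus the reverse of the Ythdc2 peak, with low enrichment and more statistical weight. Both hnRNP genes have processed pseudogenes elsewhere in the genome. How reads that align to several places were treated is not given in the sources used here, so the values of both genes are uncertain.

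ALKBH5 is a nuclear m6A demethylase. Alkbh5 (ENSMUSG00000042650, chr11:60537683-60558512, plus strand) was the only one of the 10 genes with a site in Wtap flox/flox livers alone. The 5′ site rose from a fold enrichment of 3.26 over 690 nt in Wtap flox/flox to 6.02 over 749 nt in Wtap-HKO livers (log2 ratio 0.88, percentile 81.9), and it moved from percentile 22.9 to percentile 50.8 of the lists. The site at chr11:60554262-60554501, at 80.2% of the span, had a fold enrichment of 3.08 over 240 nt in Wtap flox/flox livers (false discovery rate 4e-33) and no peak in Wtap-HKO livers. Within the gene, the site near the 5′ end was higher and the site towards the 3′ end was no longer listed.

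FTO demethylates m6A and also m6Am next to the cap. Fto (ENSMUSG00000055932, chr8:91313367-91668433, plus strand) had 1 peak, in Wtap-HKO livers only, with a fold enrichment of 7.83 (percentile 62.2). It covered 151 nt in 3 blocks of 66, 40 and 45 nt that span introns between 91313555 and 91390599, and it began 188 nt from the 5′ end, where the Fto sequence shown above lies. Its false discovery rate was 7.4e-05, and 3.72% of the Wtap-HKO list had a weaker one. The peaks of Fto and Ythdc2 were the only members' peaks with a false discovery rate above 1e-05.

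The sites were then divided by position. By the middle base of their peaks, 7 sites lay in the first 10% of the gene span, 1 each in Ythdf1, Ythdf2, Ythdf3, Ythdc1, Ythdc2, Hnrnpa2b1 and Alkbh5. Of these, 3 were found in Wtap-HKO livers only, beside 31.2% of all sites at any place, and 4 in both genotypes. The shares of these kinds among all sites of the first 10%, or of the rest, are not given here. At all 4 shared sites the fold enrichment was higher in Wtap-HKO, with log2 ratios of 0.66 to 1.31 and a median of 0.85. Over all genes, 83.1% of 1641 1-to-1 sites in the first 10% were higher in Wtap-HKO, with a median of 0.78. The 5′ sites of reader and eraser genes thus went the way most 5′ sites of this list pair went.

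The other 11 sites had their middle base further along the genes. The Fto site is counted here by its middle base, at 20.9% of the span with introns included, though its peak begins 188 nt from the 5′ end. Of the 11 sites, 2 were found in Wtap-HKO only, 1 in Wtap flox/flox only and 8 in both genotypes. At the 6 of them with 1 peak in each genotype the log2 ratio ran from -1.74 to 0.28 with a median of -0.13, and 2 of the 6 were higher in Wtap-HKO, beside 42.6% of 8075 such sites over all genes, whose median was -0.14. Among the 1-to-1 sites the lowest value of the 5′ sites was 0.66 and the highest of the rest was 0.28. The divided internal site of Ythdc1 was not among them, and by its highest peak its log2 ratio of 2.29, at 76.3% of the span, was above that of every 5′ site. Over all genes the medians of both kinds differ in the same direction.

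Of the 5 sites found in Wtap-HKO only, 3 had their middle base in the first 10% of the span, beside 36.5% of 5914 such sites over all genes. An edge within 200 nt of the 5′ end was found for 3 of the 5 too, beside 27.3%, but not for the same sites, since Fto replaced Ythdc2 by that measure. The distances to the 5′ end were 47 nt for Ythdf1, 162 nt for Ythdf2, 188 nt for Fto and 736 nt for Ythdc2. The Hnrnpc peak was the exception and lay at 93.7% of its span. Gene spans include introns and all annotated isoforms, so these distances take no account of the isoform used in liver.

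**Figure D4:**
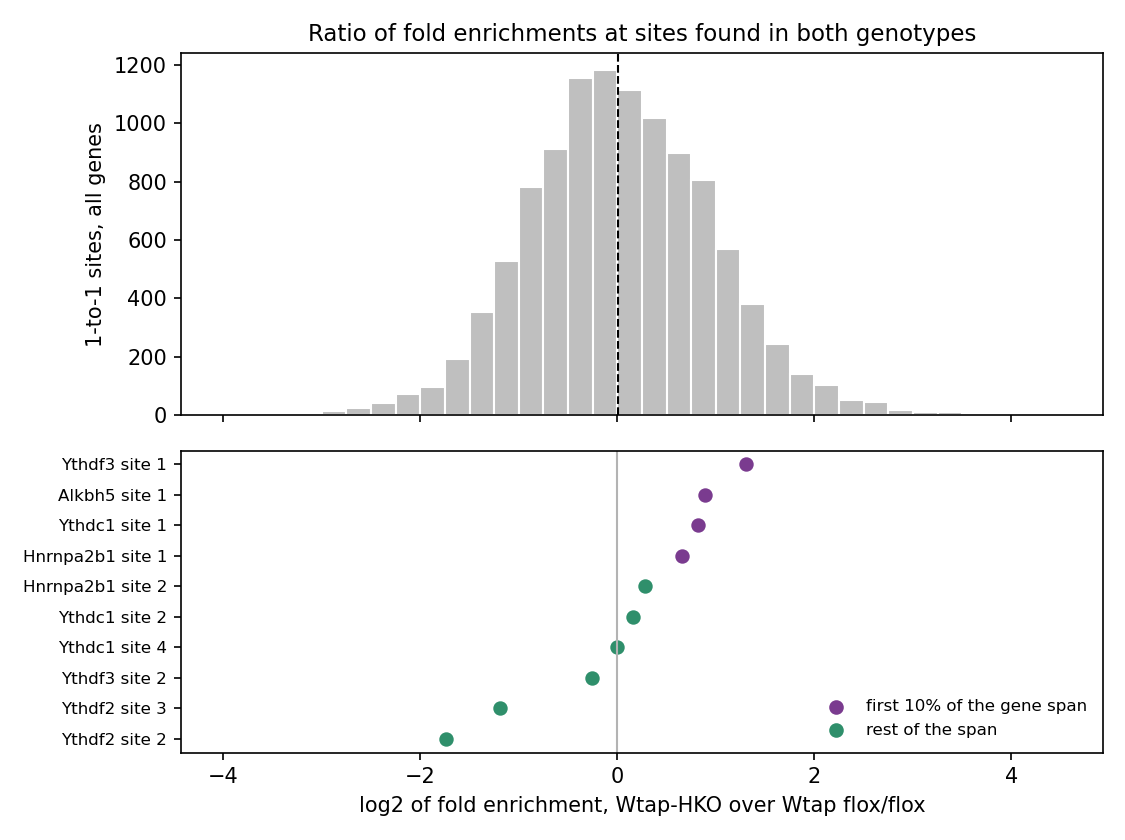
Log2 ratio of fold enrichments, Wtap-HKO over Wtap flox/flox (horizontal axis), as a histogram of all 10805 1-to-1 sites with a dashed line at their median of 0.01 (upper panel), and for the 10 sites of reader and eraser genes (lower panel), coloured by place along the gene. The 4 sites in the first 10% of the span lie at 0.66 or higher, and the 6 others at 0.28 or lower.

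Some of the internal peaks were long. In Wtap flox/flox livers 4 of 13 peaks covered more than 1000 exonic nt, 1 each in Ythdf1, Ythdf2, Ythdf3 and Ythdc1, beside 2.64% of that list, whose median length was 269 nt. In Wtap-HKO livers 2 of 19 did so, in Ythdf2 and Ythdf3, beside 2.72% of that list and a median of 240 nt. The long peaks of Ythdf1 and Ythdc1 were those whose stretch was listed as 2 peaks in Wtap-HKO livers. The level of enrichment was ordinary, with a median fold enrichment of 5.62 over the 13 peaks beside 5.51 for all Wtap flox/flox peaks, and of 4.67 over the 19 peaks beside 5.93 for all Wtap-HKO peaks.

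The authors deposited a separate list of regions that differ between the genotypes. It included 4 of the 18 sites (22.2%), beside 18.2% of all sites. All 4 were internal sites of Ythdf1, Ythdf2 (both) and Ythdf3, that is 4 of the 7 sites of the YTHDF genes and 0 of the 11 sites of the other genes. The listed regions were chr2:180910709-180912083 in Ythdf1, chr4:132205233-132205532 and chr4:132186705-132205024 in Ythdf2 and chr3:16204014-16214311 in Ythdf3, with pooled fold enrichments of 4.36, 2.88, 6.05 and 8.18. Membership was not set by the size of the ratio of fold enrichments alone. For differing peaks the paper states thresholds on both the p-value and the fold change. The internal site of Ythdf3, with a log2 ratio of -0.25, was in the list, while its 5′ site, with 1.31, and the divided site of Ythdc1, with a fold enrichment of 58.5 in Wtap-HKO livers, were not.

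Other genes of the m6A pathway were set beside these. Of 12 writer genes 9 had a peak, and of their 28 sites 21 were found in both genotypes, 2 in Wtap flox/flox only and 5 in Wtap-HKO only. The median log2 ratio of their 20 1-to-1 sites was -0.02, with 9 higher and 11 lower in Wtap-HKO. Mettl3, Mettl14 and Zcchc4 had 0 peaks. The writers thus also kept most sites, and their values were on balance level.

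Of 12 other proposed readers 7 had a peak, with 12 of 13 sites in both genotypes and 1, in Elavl1, in Wtap-HKO only. The median log2 ratio of their 12 1-to-1 sites was 0.29, with 10 higher and 2 lower in Wtap-HKO. The range ran from -1.21 in G3bp1, a stress granule protein, to 2.37 in Fmr1, which encodes the fragile X protein FMRP. Among 10 other hnRNP genes 7 had a peak, all 12 of their sites were found in both genotypes, and the median log2 ratio was 0.24, with 8 higher and 4 lower. The list of differing regions held 4 of the 28 writer sites (14.3%), 2 of the 13 other reader sites (15.4%) and 4 of the 12 other hnRNP sites (33.3%). Over all sites the share was 18.2%. With a median of 0.22, the reader and eraser genes lay close to the other readers and hnRNP genes in value, and none of these differences between lists was tested.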

How the data were processed

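Fragmented poly(A)+ RNA from livers had been immunoprecipitated with an m6A antibody (Synaptic Systems) and sequenced from libraries that do not mark strand, so antisense reads cannot be told apart. Per the labels, fastp 0.19.11, BWA 0.7.12, HOMER 4.9.1 and GRCm38 were used. The authors aligned reads with BWA mem, which is not a spliced aligner, and called peaks with exomePeak. They deposited 3 lists, with replicates combined by a rule not given in the sources used here. Fold enrichment is a linear ratio of IP to input that the authors deposited, and its library scaling is not given. False discovery rates were deposited as log10 scores. The list of differing regions also holds the authors' own log2 fold change and significance values between genotypes, which were not used. Only its positions and pooled fold enrichment were.

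Sites were built in pandas 2.3.3 and numpy 2.4.6 under Python 3.11.15 and drawn with matplotlib 3.10.9, and starts are printed 1-based. Site matching was tested on simulated data. Percentile ranks are by fold enrichment within a list. Gene spans and 5′ sequences are from RefSeq, GRCm38.p6. Every site of the 10 genes is described. The genes and the comparison lists were chosen with earlier results of these data known, among them the shift of Wtap-HKO peaks towards 5′ ends, which is therefore no independent support. Alternatives were stricter peak thresholds, other overlap rules, centred ratios, rank differences and gene assignment by position. Sequences under peaks, transcript regions and stop codons were not analysed here.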

Additional observations from a re-analysis of the deposited data

How the results depend on the processing

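No paired analysis was possible because the lists combine the replicates of each genotype, which also leaves no way to leave out a replicate. Depth is unknown, so no smallest detectable enrichment can be given. Of 47 values recomputed under another setting, 43 kept their size or direction, 4 moved and 0 reversed. The tally is a weak check, because centring shifted each ratio by only 0.0057 on the log2 scale and could reverse none of them. With a false discovery rate under 1e-05 in each list, 3 sites in place of 5 were found in Wtap-HKO only, since the single peaks of Fto and Ythdc2 dropped out. With a fold enrichment of at least 2, 2 sites in place of 1 were found in Wtap flox/flox only, since the Wtap-HKO peak of Ythdf2 at 1.94 dropped out. By gene name alone, 7 sites in place of 4 counted as within the list of differing regions, which is every site of the 3 YTHDF genes. The other move was at the Ythdc1 site nearest the 3′ end, whose ratio is close to 1. Assigning peaks by position gave 14 and 20 peaks in place of 13 and 19, from the entry that overlaps Ythdc1. The median log2 ratio of 0.22 was 0.22 after centring on all 1-to-1 sites and 0.28 with sites whose peaks shared at least 50% of the longer peak.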
